A study of Homo sapiens with 6 samples.

Results

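A set of 10 genes known as targets of YAP and the TEAD factors were followed across 3 stable lines of HCT116, a human colon carcinoma cell line. They were CYR61, CTGF, AMOTL2, MYOF, ASAP1, AXL, F3, CRIM1, FJX1 and DOCK5 and were chosen by symbol from a published signature. That choice was made with earlier results of these data known, so the counts below describe these genes and are not independent evidence. All 10 were found among the 20026 gene rows kept from each library. One line over-expressed TEAD4 with the K178R change, one over-expressed wild type TEAD4, and one was a control, with 2 RNA-seq libraries each. The labels do not say what the control line carries, which promoter drives TEAD4 and whether a line is 1 clone or a pool. They also do not say whether a line's 2 libraries were separate cultures, so every p-value here reflects library-to-library spread that may be technical.

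TEAD factors bind DNA but need a coactivator to switch genes on, and YAP and TAZ are those coactivators. The Hippo kinases keep YAP and TAZ out of the nucleus when they are active, and when they are not, YAP and TAZ join TEAD at promoters and enhancers. The 10 genes belong to a signature often used to read out that activity, and their products act in different places, as secreted matrix proteins, surface receptors, membrane and cytoskeletal regulators and inhibitors of YAP itself.

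The 10 genes did not move as a block. With K178R, F3, DOCK5 and CRIM1 stood about as far above control as they stood above the wild type line, at 1.66 to 2.21 times the mean FPKM of either. AXL and CYR61 were lower than control in both TEAD4 lines, and FJX1 and ASAP1 were higher in both. MYOF was higher than control with K178R and lower with wild type TEAD4, and AMOTL2 was lower with wild type TEAD4. CTGF, a widely used reporter of YAP activity, read 0.178 to 0.682 FPKM. In both TEAD4 lines it lay below the 0.5 FPKM that a gene had to reach to be tested, and control lay around it.

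Values are FPKM, fragments scaled to transcript length and to the mapped fragments of the library, so levels of different genes can be set side by side. Depth relative to control replicate 1, read from the steps of the lowest values, lay between 0.914 and 1.05, while absolute depth is unknown. TEAD4 read 71.2 and 72.3 FPKM in K178R, 86.4 and 84.4 FPKM in wild type and 16.6 and 17.5 FPKM in control, so both over-expressing lines stood above control in every library. Both K178R libraries lay below both wild type libraries, so the TEAD4 lines also differed in TEAD4 level. The part of that difference in the comparison of K178R with wild type was not tested. The genotype field of wild type replicate 2 names TEAD5 in place of TEAD4, and its title names wild type TEAD4. The median gene of at least 10 FPKM differed by 0.0375 (K178R), 0.0409 (wild type) and 0.0375 (control) on the log2 scale between the 2 libraries of a line. Of 6 epithelial markers, 5 were at 0.5 FPKM or above in both libraries of every line, and VIL1 was below 0.03 FPKM. Their summed level was 2848 to 2881 FPKM in K178R, 1792 to 1846 FPKM in wild type and 2631 to 2677 FPKM in control. Most of it was keratin RNA. In K178R, wild type and control, mean KRT8 was 1381, 770 and 1298 FPKM and mean KRT18 was 890, 457 and 691 FPKM. In the same order, mean KRT19 was 429, 435 and 502 FPKM. Mean EPCAM was 152, 147 and 152 FPKM, and mean CDH1 was 13.1, 10.6 and 11.4 FPKM. The part of these levels in the results below was not tested. Fibroblast, endothelial and leukocyte markers summed to at most 0.115, 0.109 and 0.112 FPKM in any library, with COL1A2, DCN, LUM and CD3E at 0 throughout.

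Across the genome, 11445 genes reached 0.5 FPKM in 2 or more libraries and were tested with limma on log2(FPKM + 1). All log2 changes are on that scale, so those of genes with low values are understated. A gene was called when its Benjamini-Hochberg adjusted p over all genes tested was under 0.05. All targets but CTGF, 9 in number, were tested, and each of the 9 was above 3.5 FPKM in every library. An exact permutation test of 2 against 2 libraries cannot go below p = 0.333, so single genes were tested only in fits across all genes.

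**Figure D1:**
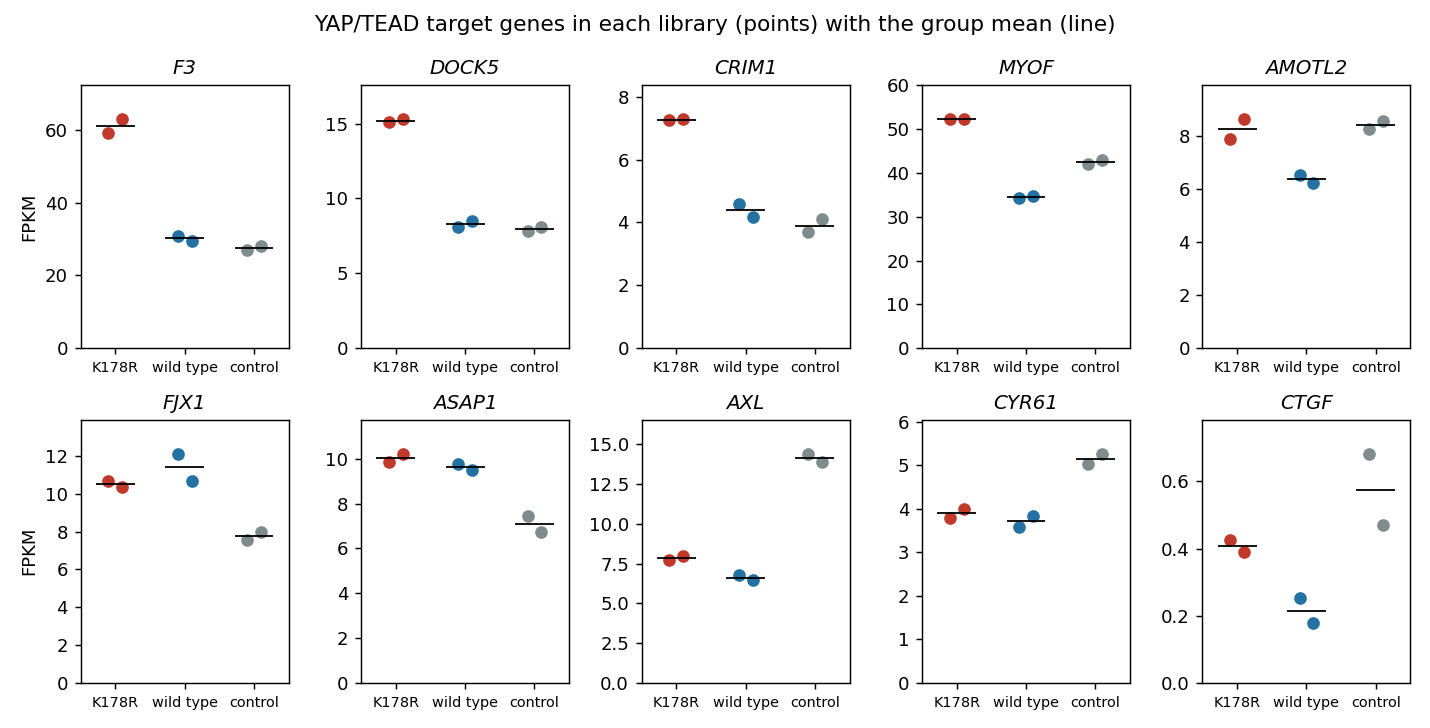
FPKM of each target gene (linear axes from 0) in the 2 libraries of K178R, wild type TEAD4 and control, with the mean of each group as a line. F3, DOCK5 and CRIM1 stand high in K178R alone, AXL and CYR61 stand high in control, and MYOF takes a different level in each line.

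With K178R, 6 of the 9 tested targets were higher than control and 2 were lower, where 11.7% of all tested genes were called higher and 11.1% lower. With wild type TEAD4, 3 of 9 were higher than control and 4 were lower, where 37.6% of all tested genes were called higher and 12.2% lower. Between the TEAD4 lines, 6 of 9 were higher in K178R than in wild type and 0 were lower, where 10.4% of all tested genes were called higher and 34.5% lower. The 6 were F3, DOCK5, CRIM1, MYOF, AMOTL2 and AXL, and by limma's unadjusted p under 0.05 the number lower was also 0. Without wild type replicate 2, FJX1 was called lower in K178R than in wild type, making 1.

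Larger changes were counted too. Called changes of at least 0.5 on the log2 scale were found for 4 of 9 targets with K178R against control, F3, DOCK5, CRIM1 and AXL, and for 2.92% of all tested genes. With wild type TEAD4 against control they were AXL and FJX1, 2 of 9, beside 6.93% of all tested genes. FJX1 stood at the limit itself, with a log2 change of 0.50 in wild type TEAD4 against control, and was below it after median-of-ratios scaling (0.39) or with wild type replicate 1 (0.42) or control replicate 1 (0.46) left out, which leaves 1. Between K178R and wild type, 4 of 9 were higher by that much, F3, DOCK5, CRIM1 and MYOF, beside 0.516% of all tested genes higher by that much and 4.83% changed by it in either direction. Ranked by log2 change in that comparison, F3 was 6, DOCK5 17, CRIM1 31 and MYOF 37 among 11445 genes. The median change of the 9 targets was 0.40 with K178R against control, 0.06 with wild type against control and 0.33 with K178R against wild type. Over all tested genes the medians were 0.0025, 0.09 and -0.08 for the same comparisons. In K178R against wild type, a cut of 0.5 was thus farther from the median gene upward than downward. Median-of-ratios scaling moved that median to 0.0084. The comparisons share libraries, so they are given side by side and not set against each other.

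**Figure D2:**
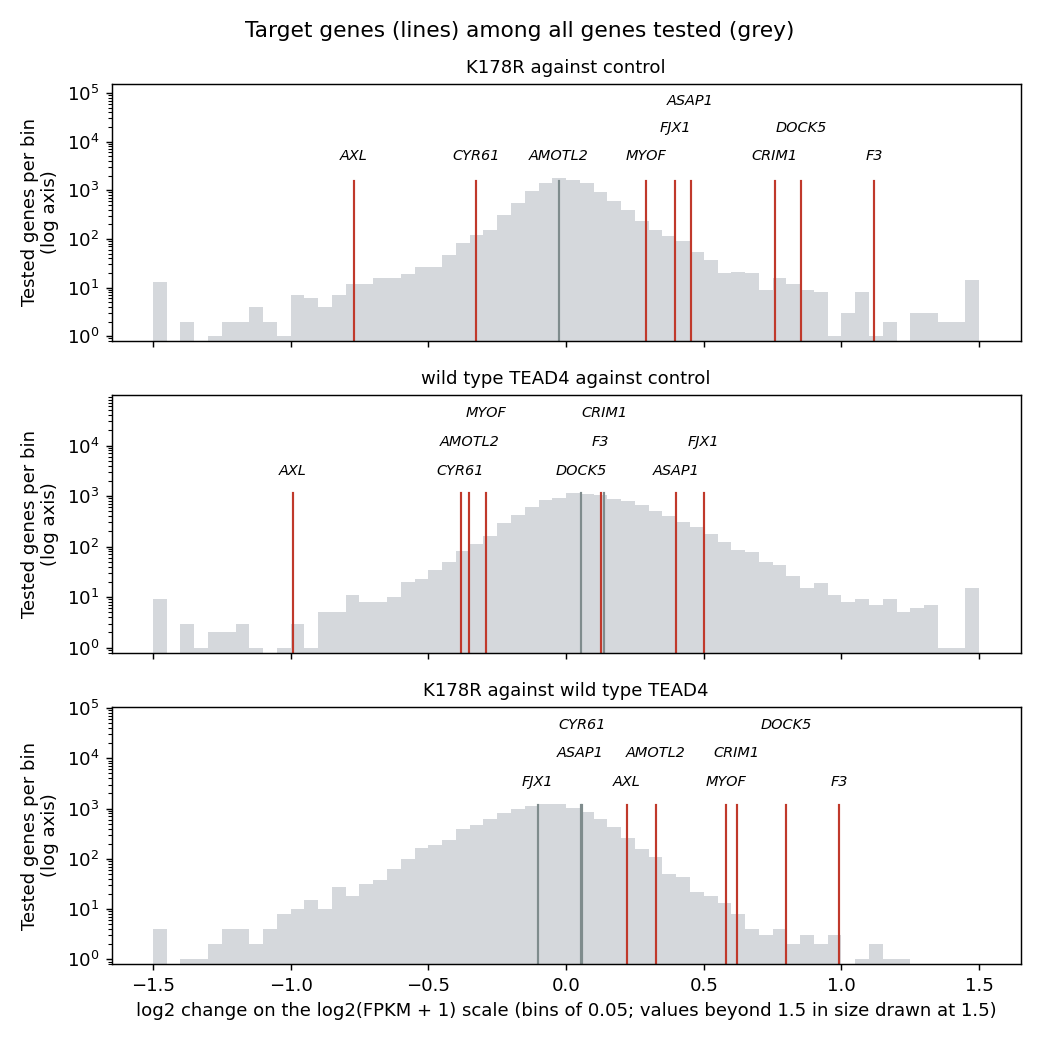
Distribution of the log2 change (x axis) of all tested genes in grey (number of genes per bin, log axis) for each comparison, with each tested target as a line, red where called and grey where not. F3, DOCK5, CRIM1 and MYOF lie in the thin upper tail of K178R against wild type TEAD4, and AXL lies in the lower tail of both comparisons with control.

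CYR61 and CTGF encode matricellular proteins of the CCN family, secreted into the matrix, where they bind integrins. CYR61 (chromosome 1, 85580761 to 85583962, plus strand, GRCh38, GENCODE release 29, as for all gene positions here) read 3.80 and 4.002 FPKM in K178R, 3.58 and 3.84 FPKM in wild type and 5.03 and 5.26 FPKM in control. Both TEAD4 lines lay below both control libraries, and their ranges overlapped each other. CYR61 fell with K178R (log2 -0.33, SE 0.05, adjusted p = 0.0060) and with wild type TEAD4 (log2 -0.38, SE 0.05, adjusted p = 0.00121). Between the TEAD4 lines it was not called, with a difference of 0.06 and a 95% interval of -0.07 to 0.18. In these bulk libraries, fewer cells expressing a gene and less of its RNA per cell cannot be told apart.

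CTGF (chromosome 6, 131948176 to 131951373, minus strand) read 0.424 and 0.391 FPKM in K178R, 0.251 and 0.178 FPKM in wild type and 0.682 and 0.469 FPKM in control. The 3 lines did not overlap, wild type lying lowest and control highest, but only 1 library reached 0.5 FPKM. Mean FPKM was 0.708 times control with K178R and 0.373 times control with wild type TEAD4. CTGF did not pass the filter and was not tested. When the filter was lifted, it was lower with wild type TEAD4 than in control (log2 -0.37, adjusted p = 0.0178, limma over all genes above 0) and was not called with K178R against control (log2 -0.16, adjusted p = 0.241) or against wild type (log2 0.21, adjusted p = 0.0888). Part of the CTGF exons lies opposite another annotated gene, and the use of strand in these values is not given.

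The promoter of CTGF is shown because it carries 3 copies of the TEAD motif within 250 bases of its start, more than any other target searched. The sequence is the strand of the gene, 5′ to 3′, from RefSeq (GRCh38.p14, where the gene is named CCN2), chr6:131951374-131951622, minus strand, with the motif GGAATG in capitals.
CTGF promoter: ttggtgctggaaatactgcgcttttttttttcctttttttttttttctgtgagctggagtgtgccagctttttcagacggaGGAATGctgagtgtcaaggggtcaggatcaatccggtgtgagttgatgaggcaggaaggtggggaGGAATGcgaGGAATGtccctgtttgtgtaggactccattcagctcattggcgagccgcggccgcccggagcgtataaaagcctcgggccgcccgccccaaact
The motifs begin at positions -169, -104 and -95 from the annotated start. CTGF, with the most matches to the motif among the 6 targets searched, had the lowest level of the 10 in all 3 lines. Any link between matches and level was not tested.

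AXL is a receptor tyrosine kinase whose ligand is GAS6. Among the 9 tested targets, it gave the largest fall in both comparisons with control. AXL (chromosome 19, 41219203 to 41261766, plus strand) read 7.74 and 8.00025 FPKM in K178R, 6.77 and 6.44 FPKM in wild type and 14.4 and 13.9 FPKM in control. Both TEAD4 lines lay far below control, K178R above wild type, with no overlap between any 2 lines. AXL fell with K178R (log2 -0.77, SE 0.04, adjusted p = 3.5e-05) and with wild type TEAD4 (log2 -0.99, SE 0.04, adjusted p = 8.7e-06). Against wild type, K178R was higher (log2 0.22, SE 0.04, adjusted p = 0.00624). AXL also shares exon bases with a gene on the opposite strand.

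The second RefSeq start of AXL lies inside the gene. The 250 bases before it hold no bases that GENCODE assigns to an exon, and they hold the TEAD motif once, read on the opposite strand as CATTCC. The upstream sequence is chr19:41226505-41226754 (GRCh38.p14, plus strand), with the motif in capitals.
AXL downstream promoter: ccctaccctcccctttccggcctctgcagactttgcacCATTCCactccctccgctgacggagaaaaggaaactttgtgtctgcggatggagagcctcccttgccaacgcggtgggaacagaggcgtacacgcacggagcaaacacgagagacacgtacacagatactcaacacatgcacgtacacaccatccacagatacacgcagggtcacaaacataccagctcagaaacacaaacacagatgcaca
The window at the first AXL start held neither motif that was searched.

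F3 encodes tissue factor, the membrane protein that starts the extrinsic clotting pathway by binding factor VII. Its rise with K178R was the largest among the 9 tested targets. F3 (chromosome 1, 94529225 to 94541800, minus strand) read 59.1 and 63.0 FPKM in K178R, 30.9 and 29.5 FPKM in wild type and 26.9 and 28.2 FPKM in control. The K178R libraries stood far above the other 4, and wild type stood narrowly above control. F3 rose with K178R against control (ratio of mean FPKM 2.21, log2 1.12, SE 0.04, adjusted p = 5.0e-06) and against wild type (ratio 2.02, log2 0.99, SE 0.04, adjusted p = 2.1e-05). The small difference between wild type and control (log2 0.13, SE 0.04, adjusted p = 0.0444) lost its call in 9 of 15 alternative settings. They include median-of-ratios scaling (log2 0.0066, adjusted p = 0.913) and leaving out control replicate 1, control replicate 2 or wild type replicate 1 (adjusted p = 0.207, 0.0594 and 0.190).

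The F3 promoter is shown as that of the target that changed most with K178R and as the one window with the AP-1 motif, TGANTCA, bound by FOS and JUN proteins, which often occupy the same enhancers as TEAD. The sequence is chr1:94541801-94542009 (GRCh38.p14, RefSeq, minus strand), ending where GENCODE places the first exon, with the motif in capitals.
F3 promoter: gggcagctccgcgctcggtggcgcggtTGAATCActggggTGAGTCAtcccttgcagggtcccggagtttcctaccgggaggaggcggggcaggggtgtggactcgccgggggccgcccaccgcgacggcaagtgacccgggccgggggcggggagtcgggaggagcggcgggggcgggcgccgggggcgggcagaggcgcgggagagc
The 2 AP-1 matches begin at positions -223 and -210 from the start, and no GGAATG lay in the F3 window on either strand.

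Of the 10 targets, 6 had a promoter window that was searched, 8 windows in all since AMOTL2 and AXL have 2 starts each. Windows ran from 250 bases before to 50 after the start, both strands were read, and TGANTCA, which reads the same on both strands, was counted once per place. GGAATG lay in 3 of the 8 windows, those of CTGF, the downstream AXL start and the downstream AMOTL2 start, and in 14.0% of 35116 promoter windows of the same length. TGANTCA lay in 1 of the 8 and in 7.71% of all, and no 2 matches overlapped. These are matches of letters in short windows and not measured binding. Of the 250 bases before the downstream AMOTL2 start, GENCODE assigns 147 to exons. CYR61, ASAP1, CRIM1 and DOCK5 were not searched. Target windows on chromosome 8, which holds ASAP1 and DOCK5, were left out. No such rule was applied to the share of all promoters.

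**Figure D3:**
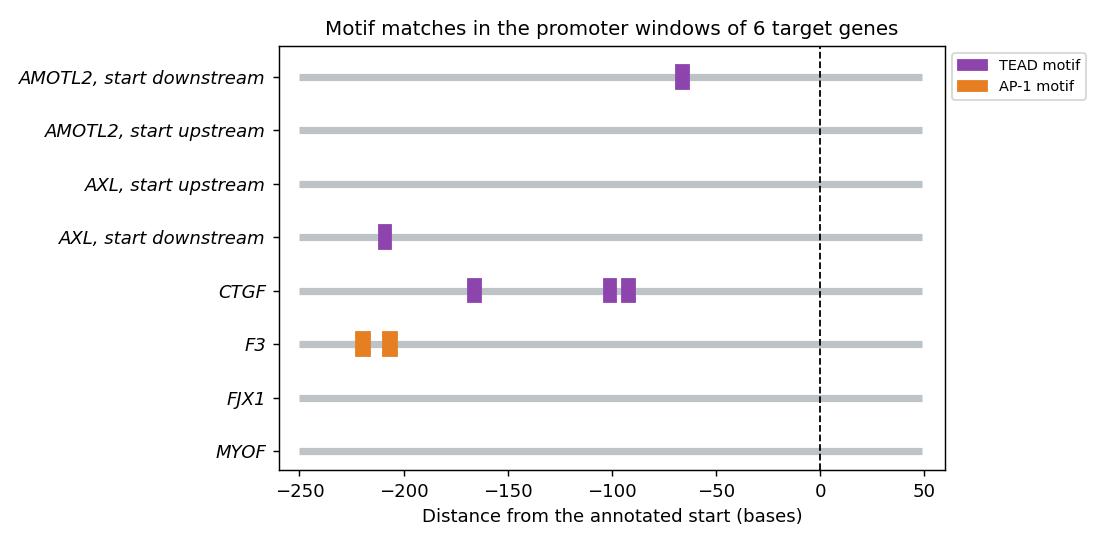
Matches of the TEAD motif (purple) and the AP-1 motif (orange) in the 8 promoter windows, by distance in bases from the annotated start (dashed line). CTGF holds 3 TEAD matches, the downstream starts of AXL and AMOTL2 hold 1 each, F3 holds 2 AP-1 matches, and the other 4 windows hold none.

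CRIM1 is a transmembrane protein with cysteine-rich repeats that binds bone morphogenetic proteins. CRIM1 (chromosome 2, 36355926 to 36551135, plus strand) read 7.27 and 7.29 FPKM in K178R, 4.60 and 4.19 FPKM in wild type and 3.70 and 4.10 FPKM in control. The K178R libraries stood well above the rest, and wild type lay just above control. CRIM1 rose with K178R against control (ratio 1.87, log2 0.76, SE 0.06, adjusted p = 2.1e-04) and against wild type (ratio 1.66, log2 0.62, SE 0.06, adjusted p = 3.8e-04). With wild type TEAD4 against control it was not called (log2 0.14, adjusted p = 0.0948), with a 95% interval of -0.0037 to 0.28. Its exons too share bases with a gene on the opposite strand.

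FJX1 is the human relative of the Drosophila Golgi kinase four-jointed, which acts on Fat and Dachsous cadherins in the fly. FJX1 (chromosome 11, 35618419 to 35620868, plus strand) read 10.7 and 10.4 FPKM in K178R, 12.1 and 10.7 FPKM in wild type and 7.53 and 7.96 FPKM in control. Both TEAD4 lines lay above control, and the nearest libraries of K178R and wild type were 10.67 and 10.68 FPKM. FJX1 rose with K178R (log2 0.40, SE 0.06, adjusted p = 0.00411) and with wild type TEAD4 (log2 0.50, SE 0.06, adjusted p = 6.1e-04). Between the TEAD4 lines it was not called (log2 -0.10, 95% interval -0.25 to 0.04). Without wild type replicate 2 K178R was called lower (log2 -0.19, adjusted p = 0.0441).

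MYOF, DOCK5 and ASAP1 act at the plasma membrane and the actin cytoskeleton. MYOF, myoferlin, is a ferlin that repairs and fuses membranes. It took opposite directions in the TEAD4 lines. MYOF (chromosome 10, 93306429 to 93482317, minus strand) read 52.2 and 52.3 FPKM in K178R, 34.3 and 34.9 FPKM in wild type and 42.1 and 43.0 FPKM in control. Control lay between the TEAD4 lines and no library of any line overlapped another line. MYOF rose with K178R (log2 0.29, SE 0.03, adjusted p = 5.1e-04) and fell with wild type TEAD4 (log2 -0.29, SE 0.03, adjusted p = 2.3e-04). K178R stood above wild type by 0.58 on the log2 scale (ratio 1.51, SE 0.03, adjusted p = 2.7e-05).

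DOCK5 is an exchange factor that activates the GTPase RAC. DOCK5 (chromosome 8, 25184723 to 25418082, plus strand) read 15.1 and 15.3 FPKM in K178R, 8.10 and 8.52 FPKM in wild type and 7.84 and 8.08 FPKM in control. As with F3 and CRIM1, the K178R libraries stood apart, and wild type and control lay side by side. DOCK5 rose with K178R against control (ratio 1.91, log2 0.85, SE 0.04, adjusted p = 1.6e-05) and against wild type (ratio 1.83, log2 0.80, SE 0.04, adjusted p = 3.7e-05). With wild type TEAD4 it was not called (log2 0.06, 95% interval -0.04 to 0.15), and under both scalings tried that difference changed sign, to -0.054 and -0.041.

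ASAP1 is a GTPase-activating protein for ARF GTPases that works at focal adhesions. ASAP1 (chromosome 8, 130052104 to 130443660, minus strand) read 9.88 and 10.2 FPKM in K178R, 9.79 and 9.51 FPKM in wild type and 7.44 and 6.72 FPKM in control. All 4 TEAD4 libraries lay above both control libraries, and K178R lay just above wild type. ASAP1 rose with K178R (log2 0.45, SE 0.05, adjusted p = 0.00127) and with wild type TEAD4 (log2 0.40, SE 0.05, adjusted p = 9.0e-04). Between the TEAD4 lines the difference of 0.05 was not called (95% interval -0.07 to 0.18), and after median-of-ratios scaling it was 0.15 and called (adjusted p = 0.0476).

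AMOTL2 is an angiomotin that binds YAP and holds it in the cytoplasm, so it is both a target and an inhibitor. AMOTL2 (chromosome 3, 134355874 to 134375479, minus strand) read 7.89 and 8.64 FPKM in K178R, 6.53 and 6.25 FPKM in wild type and 8.27 and 8.58 FPKM in control. Wild type lay below the other lines, and the K178R range enclosed that of control. AMOTL2 fell with wild type TEAD4 (log2 -0.35, SE 0.05, adjusted p = 0.00161) and K178R exceeded wild type (log2 0.33, SE 0.05, adjusted p = 0.00280). K178R against control gave -0.03 with a 95% interval of -0.15 to 0.10 and was not called. A ribosomal protein pseudogene shares exon bases with AMOTL2, and how reads matching several genes were counted is not given.

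**Figure D4:**
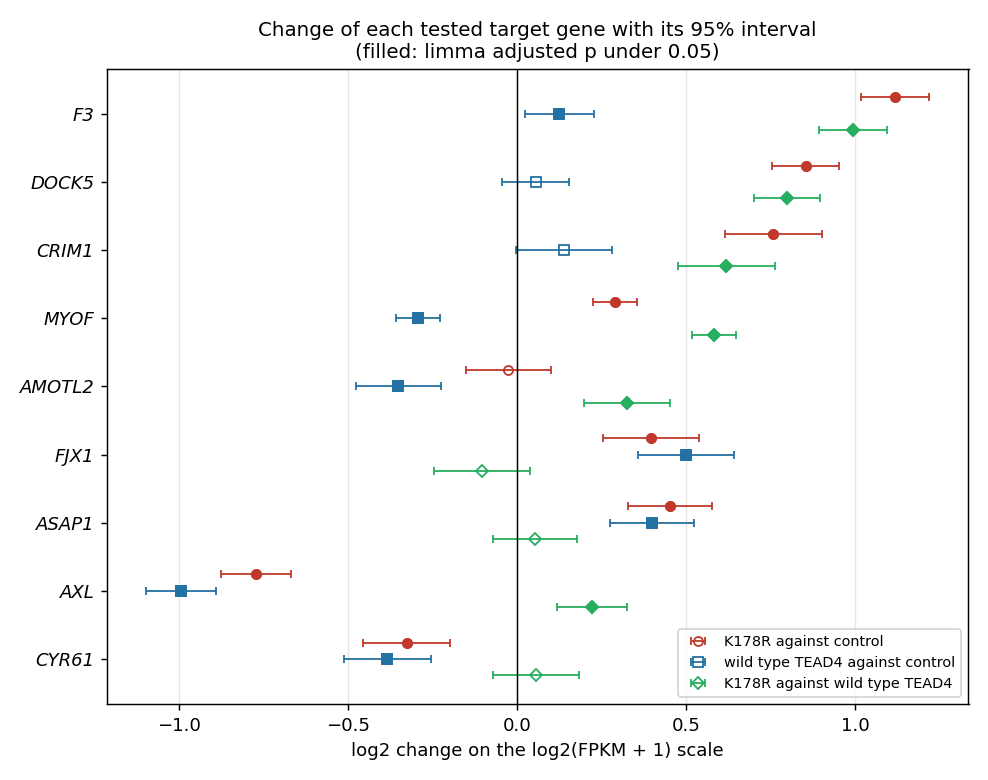
Log2 change on the log2(FPKM + 1) scale with its 95% interval (limma) for the 9 tested targets, K178R against control (red circles), wild type TEAD4 against control (blue squares) and K178R against wild type (green diamonds), filled where the adjusted p is under 0.05. Red and blue lie together for FJX1, ASAP1 and CYR61, and far apart for F3, DOCK5, CRIM1 and MYOF.

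As levels in FPKM, MYOF and F3 were the 2 highest targets in every line, and CTGF was the lowest. In K178R, F3 (61.0 FPKM) stood above MYOF (52.3 FPKM), and elsewhere MYOF was the higher, at 34.6 FPKM with F3 at 30.2 FPKM in wild type, and at 42.6 FPKM with F3 at 27.6 FPKM in control. AXL was the third highest in control at 14.1 FPKM, but place 7 in K178R and place 6 in wild type. Neighbours whose libraries overlapped were AMOTL2 and AXL in K178R and in wild type, and DOCK5 and FJX1 in control. Of the genes at 0.5 FPKM or above in the same line, 92.9% lay below F3 in K178R, 84.1% in wild type and 82.8% in control.

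A further 12 genes of the same signature were looked up, and 6 of them passed the filter. With K178R 3 of the 6 were higher than control and 0 were lower, namely LATS2, a Hippo kinase (log2 0.43), NT5E, the ecto-nucleotidase CD73 (log2 0.40), and the kinase NUAK2 (log2 0.36). The share of all tested genes was 11.7% higher and 11.1% lower. The count was 1 without K178R replicate 2. At an unadjusted p under 0.05 (limma) the number lower was also 0. With wild type TEAD4, LATS2 (log2 0.36), NUAK2 (log2 0.31) and GADD45A (log2 0.22) were higher than control and NT5E was lower (log2 -0.16), where 37.6% of all tested genes were higher and 12.2% lower. The 3 higher became 1 without control replicate 2 or either wild type library, and the 1 lower became 0 without control replicate 1 or either wild type library. Between K178R and wild type, NT5E (log2 0.56, adjusted p = 1.7e-04) and PTPN14 (log2 0.16) were higher and GADD45A was lower (log2 -0.28), where 10.4% of all tested genes were higher and 34.5% lower. PTPN14 lost its call without any 1 of the 4 libraries compared, leaving 1. Of the 6, 0 had a called change of at least 0.5 on the log2 scale against control with either K178R or wild type TEAD4. All tested genes gave 2.92% with K178R and 6.93% with wild type TEAD4. Between K178R and wild type, 1 of the 6, NT5E, was higher by that much, beside 0.516% of all tested genes. NT5E read 10.9 and 10.4 FPKM in K178R, 6.85 and 6.96 FPKM in wild type and 7.96 and 7.73 FPKM in control, the same order as MYOF. ANKRD1, IGFBP3, FOXF2, CCDC80, TGFB2 and RBMS3 did not pass the filter, and FOXF2 was listed at 0 in all libraries.

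Of 9 further published targets, 7 were tested. With K178R 3 were higher than control and 1 was lower, beside 11.7% and 11.1% of all tested genes. Wild type TEAD4 gave 3 higher and 2 lower, beside 37.6% and 12.2% of all tested genes, so the share higher was near that of all genes. AREG, amphiregulin, a ligand of the EGF receptor, rose in both TEAD4 lines (log2 0.38 with K178R and 0.57 with wild type TEAD4). KRT34 was higher in both, with 1.17 and 0.742 FPKM in K178R, 0.361 and 0.467 FPKM in wild type and 0.0708 and 0.0678 FPKM in control. In wild type its call ended without either control library or without wild type replicate 2. KRT34 reached 0.5 FPKM in the K178R libraries alone, so it passed the filter only through the line where it was high. Its place in the counts of this list is therefore no evidence of a rise with K178R. With a filter of 1 FPKM it was not tested. THBS1 and AJUBA fell with wild type TEAD4 (log2 -0.31 each). BIRC5, named after its values were seen, was the 1 lower gene with K178R (log2 -0.09), and its call ended whichever single library was left out of the fit. Between K178R and wild type 3 were higher, KRT34, AJUBA and THBS1, and 2 were lower, AREG and BIRC5, beside 10.4% and 34.5% of all tested genes. The 3 became 1 without wild type replicate 1, and the 2 became 1 without wild type replicate 2 or either K178R library.

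Relatives and binding partners of the targets formed a list of 24 genes, 15 of them tested. With K178R 2 were higher than control and 3 were lower, beside 11.7% and 11.1% of all tested genes. Wild type TEAD4 gave 7 higher and 1 lower, beside 37.6% and 12.2% of all tested genes. Between K178R and wild type 0 were higher and 6 were lower, beside 10.4% and 34.5%, so in both of these comparisons the larger count was near the share of all genes. Between K178R and wild type, 1 was higher and 3 were lower without wild type replicate 1, and at an unadjusted p under 0.05 (limma) 0 were higher with all libraries. GAS6, the ligand of AXL, read 8.46 and 8.78 FPKM in K178R, 14.0 and 13.9 FPKM in wild type and 12.8 and 12.4 FPKM in control, so the K178R libraries lay below the other 4. K178R was lower by limma against control (log2 -0.50, adjusted p = 1.8e-04) and against wild type (log2 -0.64, adjusted p = 7.4e-05). PROS1, protein S, a ligand of the related receptors TYRO3 and MERTK, was higher than control with K178R (log2 0.52) and wild type TEAD4 (log2 0.72). TFPI, the inhibitor of the complex of tissue factor and factor VII, read 1.03 and 1.19 FPKM in K178R, 1.95 and 1.68 FPKM in wild type and 1.85 and 1.87 FPKM in control. In K178R, where F3 was high, TFPI was lower than in control (log2 -0.44, adjusted p = 0.00546) and than in wild type (log2 -0.41, adjusted p = 0.00341).

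BMP4, a bone morphogenetic protein of the kind that CRIM1 binds, read 12.1 and 10.7 FPKM in K178R, 10.9 and 9.59 FPKM in wild type and 79.3 and 79.6 FPKM in control. It fell in both TEAD4 lines (log2 -2.70 with K178R and -2.84 with wild type TEAD4), whereas CRIM1 was high in K178R alone. BMP7 was higher in wild type than in control (log2 0.57) and fell short of wild type in K178R (log2 -0.67).

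Likeness was measured as the distance between genes in their pair of log2 changes against control, among genes with a mean of at least 5 FPKM over the 6 libraries. It was taken for the 5 targets that changed by 0.5 or more against control in either TEAD4 line. DOCK5 was among the 3 nearest genes of both F3 (distance 0.27) and CRIM1 (0.13), and CRIM1 was the nearest gene of DOCK5. The nearest gene of F3 was the immediate early factor EGR1 (0.16), with changes of 1.02 with K178R and 0.24 with wild type TEAD4. MPP7 and UPP1 were the other near genes of both CRIM1 and DOCK5. AXL was nearest to TAGLN2 (0.15), and FJX1 to BCKDHA (0.022) and ETV5 (0.029). With 3 groups, a pair of changes describes a gene only coarsely.

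Scaling of the libraries moved all genes together in the comparison of wild type TEAD4 with control. Median-of-ratios scaling shifted the median of all tested genes by -0.10, and gave 2572 genes called higher and 2884 lower, beside 4309 and 1402 without it. The targets then had 2 higher and 4 lower calls, F3 being the one that ended, with AXL at -1.10, CYR61 at -0.48, AMOTL2 at -0.46, MYOF at -0.41, FJX1 at 0.39 and ASAP1 at 0.29 on the log2 scale. Between K178R and wild type the same scaling gave 2600 higher and 2270 lower genes, beside 1187 and 3952 without it, and 7 targets higher, ASAP1 being added. With K178R against control the 8 called targets kept their call and direction in all 15 alternatives.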

How the data were processed

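Total RNA of the 3 HCT116 lines was sequenced from TruSeq RNA libraries, per the labels' protocols. The authors deposited 1 table of FPKM values per library with 20030 gene rows. The submitters' processing notes name Bowtie 0.12.2 and hg18. No source used here names the program that computed FPKM, its annotation or how strand was handled, so gene positions come from GENCODE release 29. The 4 rows with a repeated identifier were left out.

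The log2(FPKM + 1) values of all 6 libraries were modelled with limma 3.58.1 (R 4.3.3), trend included, with group means and no other covariate, two-sided. The members, lists and tests were chosen with earlier results of these data known. Beside the targets and TEAD4, a gene of a list was named for its change only when among the 3 largest called changes of its list in a comparison. BIRC5 was an exception. Cell type markers and list genes that did not pass the filter were named only for their levels. The fit was tested on simulated data. Alternatives were a pseudocount of 0.1, no filter, a filter of 1 FPKM, 2 scalings, no trend, a fit of the groups compared, a replicate block, averaged control libraries and leaving out each library. CYR61 and CTGF are CCN1 and CCN2 in RefSeq. The values of 1 gene among the further published targets are not reported here.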

Additional observations from a re-analysis of the deposited data

How the results depend on the processing

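Each of 27 tested changes of the targets was recomputed under 15 alternatives, 405 values in all, of which 391 kept their direction and their side of the threshold. Of the rest, 9 lost a call, all of them F3 in wild type TEAD4 against control, and 2 gained one, ASAP1 after median-of-ratios scaling and FJX1 without wild type replicate 2. The other 3 changed sign, none of them called: DOCK5 in wild type TEAD4 against control (-0.054 after median-of-ratios and -0.041 after upper-quartile scaling) and AMOTL2 in K178R against control, which ranged from -0.084 to 0.033 when single libraries were left out. Among other named genes, changes that were not called with all libraries and changed sign without a single one were TFPI in wild type TEAD4 against control (-0.0925 to 0.045), GADD45A and AJUBA in K178R against control (-0.15 to 0.018 and -0.10 to 0.017) and LATS2 in K178R against wild type (-0.025 to 0.17). The cause of these changes was not tested.

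The targets called numbered 6 higher and 2 lower in K178R against control, 2 to 3 higher and 4 lower in wild type against control and 6 higher and 0 to 1 lower in K178R against wild type, without single libraries. Same-numbered libraries did not deviate together (correlations of -0.041, 0.045 and -0.027), which does not show whether they were prepared together. A replicate block gave 2 targets higher and 4 lower for wild type against control, 6 and 2 for K178R against control and 6 and 0 for K178R against wild type, and the 1 further published target lower with K178R became 0.

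Counts of the small lists moved more, and the cause was not tested. For wild type TEAD4 against control, 1 other signature gene was higher with no filter or after median-of-ratios scaling, 2 were lower after either scaling and 0 with averaged control libraries. After either scaling 4 further published targets and 2 relatives or partners were lower. For K178R against control, 0 further published targets were lower with no trend, with the groups compared alone or with averaged control libraries. For K178R against wild type, 1 other signature gene was higher with no filter and 0 were lower after median-of-ratios scaling. There, 1 further published target was lower after either scaling or with no trend, 2 relatives or partners were higher after either scaling, and 3 were lower after median-of-ratios scaling.

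Without single libraries, other signature genes numbered 1 to 3 higher and 0 to 1 lower in wild type against control, 1 to 3 higher in K178R against control and 1 to 2 higher in K178R against wild type. Further published targets numbered 0 lower in K178R against control, and 1 to 3 higher and 1 to 2 lower in K178R against wild type. Relatives and partners numbered 0 to 1 higher and 3 to 7 lower in K178R against wild type. Depth in reads is unknown, so no counting error is given. CTGF was under 0.5 FPKM in 5 of 6 libraries.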
